A study of Rattus norvegicus with 6 samples.

Results

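The 8 genes Mbp, Mog, Mag, Mobp, Cnp, Mal, Ugt8 and Cldn11 encode proteins of central myelin or the enzyme that makes its main glycolipid, and in the spinal cord they are known as genes of oligodendrocytes. They were found in the array files by the gene symbol given for each probe. Ugt8, which stands there as Ugt8a, was found through its description or the transcript listed for the probe. This gave 13 probes of the 41012 on the array, and 8 genes among 36410 targets. RNA from formaldehyde-fixed, paraffin-embedded spinal cord of adult Lewis rats was hybridised to 6 Agilent arrays of the whole rat genome in 1 colour, with 1 array for each group. ENMO rats received T cells specific for myelin basic protein on day 0 and NMO-IgG, a human IgG preparation with antibodies to the astrocyte water channel aquaporin 4, on day 4. EAEcoI rats received the same T cells and subcuvia, a normal human IgG, as control IgG, and EAEcoP rats received the T cells and PBS. The groups without T cells received NMO-IgG only or control IgG only, or were healthy controls left untreated. Rats were killed 24 h after the antibody or PBS. Each array carried RNA pooled from 5 rats, or from 3 rats for the healthy control, after amplification. The T cells were transferred and not raised in the rats, the antibody was human, and the untreated healthy controls had no PBS injection, so that they differed from EAEcoP rats in more than the T cells. These T cells recognise the product of one of the 8 genes, myelin basic protein.

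Myelin is the spiral of membrane that oligodendrocytes wrap around axons in the central nervous system. Its compact layers are held together on the cytoplasmic side by myelin basic protein and by MOBP, its outermost surface carries MOG, the target of antibodies in demyelinating disease, and its innermost surface faces the axon with MAG. CNP lies in the cytoplasmic channels between layers, MAL is a raft protein of the myelin membrane, UGT8 adds galactose to ceramide and so makes galactosylceramide, and claudin-11 forms the tight junctions along the spiral. In experimental autoimmune encephalomyelitis (EAE), which T cells against myelin proteins transfer, inflammation of the spinal cord need not be followed by loss of myelin, and neuromyelitis optica (NMO) is a disease in which antibodies to aquaporin 4 damage astrocytes first.

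No group had a replicate, so differences between single arrays carry no error between animals and no p-value. Values are normalized signal intensities (NSI), that is the background-corrected intensity of a probe after quantile normalization over the 6 arrays. Probes that lie in 10 spots on an array, of which up to 175 were used per array, had a pooled SD between spots of 0.498 on the log2 scale. A difference between 2 arrays therefore had an SD of 0.704, or 1.63-fold, from the array alone. On the EAEcoP array 60.22% of spots were well above background, the highest share, and on the control IgG only array 35.43%, the lowest, with 40.03% to 54.12% on the remaining arrays. ENMO, EAEcoP and control IgG only lay on slide 1, while slide 2 carried healthy control, EAEcoI and NMO-IgG only.

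Each gene was read through probes of 60 bases, and for Mbp, Mog, Mobp and Ugt8 through more than 1 probe. The sequences of the probes on which the results turn are given as they stand in the array files, 5′ to 3′. The Mag, Cnp, Cldn11 and second Mog probes are given whole.
Mag: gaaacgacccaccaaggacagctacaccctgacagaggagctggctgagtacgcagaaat
Cnp: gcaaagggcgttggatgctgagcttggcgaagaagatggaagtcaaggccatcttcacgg
Cldn11: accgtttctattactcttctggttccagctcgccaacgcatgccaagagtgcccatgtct
Mog probe b: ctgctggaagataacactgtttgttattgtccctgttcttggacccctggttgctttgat

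The first 30 bases are given for Mog probe a and the 3 Mobp probes, since probes of these genes went different ways on the same arrays. Both Mog probes are listed for the transcript NM_022668, Mobp probes a and c for NM_012720, and Mobp probe b for the separate transcript X89638.
Mog probe a: aggaccttgagaagcaagggtcgagaactg
Mobp probe a: tttccacacctagcaggaccacacgatttc
Mobp probe b: caccaaaaatgtgtgttttgaattaacttt
Mobp probe c: agtcctggttgccagatgggagcttgaaaa

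Promoters are given for Mag and Cnp, which were both highest in EAEcoP and below background in NMO-IgG only and healthy control. The 250 bases before the start site come from RefSeq, build GRCr8, in which 7 of the 8 members had an entry. Capitals mark the motif ACAAAG, which SOX factors such as the oligodendrocyte factor SOX10 can bind, read on both strands (CTTTGT on the other), and the E-box CAGCTG, which OLIG factors can bind. The motifs do not overlap each other. Of all 27457 promoters of this length 15.96% hold the first and 11.92% the second. The Mag promoter (chr1:95291045-95291294, minus strand) holds the first motif once, at -152 from the start site, and the Cnp promoter (chr10:86011254-86011503, plus strand) holds each of them once, at -203 and -134.
Mag promoter: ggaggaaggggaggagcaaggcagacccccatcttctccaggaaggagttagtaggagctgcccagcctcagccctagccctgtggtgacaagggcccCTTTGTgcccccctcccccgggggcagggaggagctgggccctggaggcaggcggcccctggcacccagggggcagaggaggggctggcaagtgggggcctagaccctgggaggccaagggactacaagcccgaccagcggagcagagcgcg
Cnp promoter: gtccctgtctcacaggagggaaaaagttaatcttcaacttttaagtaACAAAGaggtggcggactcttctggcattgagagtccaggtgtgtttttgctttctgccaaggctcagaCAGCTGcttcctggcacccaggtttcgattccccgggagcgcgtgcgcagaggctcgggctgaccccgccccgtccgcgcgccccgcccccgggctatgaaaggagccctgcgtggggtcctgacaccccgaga

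The Mobp promoter holds ACAAAG or its complement 8 times, and those of Mbp, Mal, Ugt8 and Cldn11 hold neither motif. A match is a description of the letters and not of binding.

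**Figure D1:**
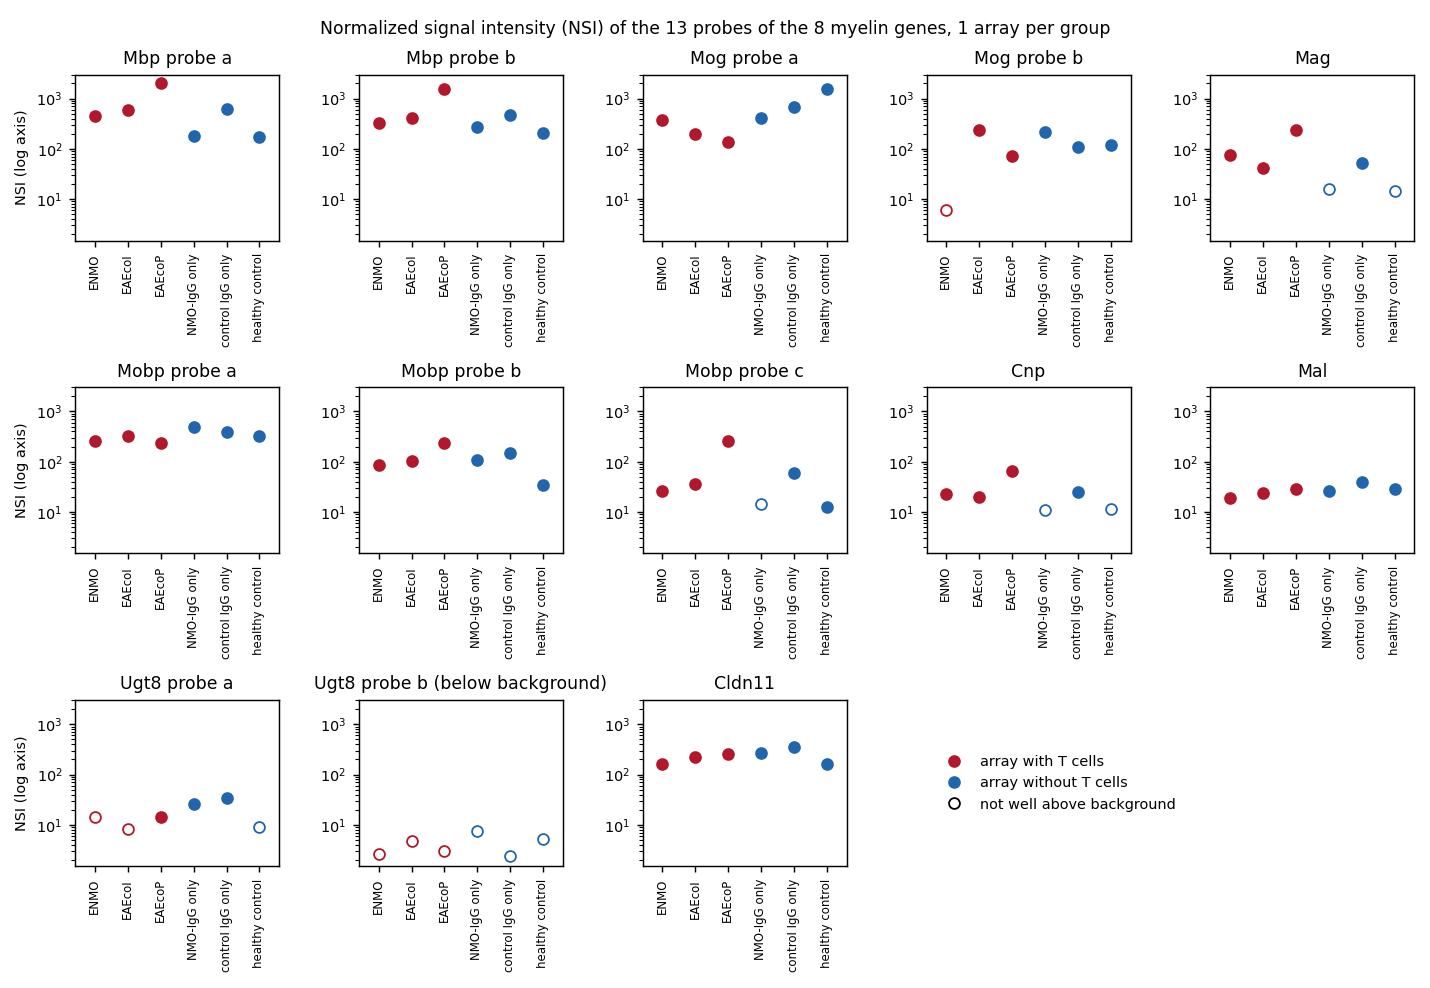
NSI of each of the 13 probes on a log axis, 1 point per array, red for arrays with T cells and blue for arrays without, open where the spot was not well above background. Both Mbp probes, Mag, Cnp and Mobp probes b and c were highest on EAEcoP, and Mog probe a was lowest there, at 135.9.

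Mbp, which encodes the protein that the T cells recognise, had its highest signal in rats with T cells and no antibody. Mbp probe a (NM_001025291) gave an NSI of 2041.5 in EAEcoP, 582.1 in EAEcoI and 456.5 in ENMO, and without T cells 168.9 in healthy control, 611.7 with control IgG only and 178.2 with NMO-IgG only. The EAEcoP array stood above all others, and control IgG only lay among the arrays with T cells, so the sides overlapped. With Mbp probe b (NM_001025293) the NSI was 1521.9 in EAEcoP, 412.6 in EAEcoI and 326.0 in ENMO, and without T cells 204.5 in healthy control, 466.7 with control IgG only and 267.1 with NMO-IgG only. Both probes placed the 6 arrays in the same order. Within that order control IgG only, EAEcoI and ENMO followed each other in steps of 1.05-fold and 1.28-fold for probe a and of 1.13-fold and 1.27-fold for probe b, which was within the spread between spots.

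Mog, the surface antigen of the outermost layer, was lowest in EAEcoP and highest in healthy control with its brighter probe, the reverse of Mbp at both ends, while control IgG only was second highest for both genes. Mog probe a gave an NSI of 135.9 in EAEcoP, 201.0 in EAEcoI and 368.0 in ENMO, and without T cells 1573.5 in healthy control, 693.3 with control IgG only and 409.2 with NMO-IgG only. All 3 arrays with T cells were below all 3 without, and the healthy control was the highest. The nearest arrays of the sides, NMO-IgG only and ENMO, differed by 1.11-fold, within the spread between spots. Mog probe b did not follow it. This probe was not well above background in ENMO (6.19), gave 72.8 in EAEcoP and 240.6 in EAEcoI, and without T cells 117.4 in healthy control, 107.1 with control IgG only and 213.9 with NMO-IgG only, and was highest in EAEcoI, where probe a was low.

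Mag, the adhesion protein that faces the axon, was well above background on all arrays with T cells and on 1 of 3 without. It gave 239.7 in EAEcoP, 42.2 in EAEcoI, 76.5 in ENMO and 52.2 with control IgG only, and its spots in healthy control (14.3) and with NMO-IgG only (15.8) were not well above background. EAEcoP was the highest array and control IgG only the highest without T cells, above EAEcoI. Cnp, the phosphodiesterase of uncompacted myelin, gave the same picture at lower signal. Its NSI was 66.5 in EAEcoP, 19.8 in EAEcoI, 23.3 in ENMO and 25.1 with control IgG only, against 11.2 in healthy control and 10.99 with NMO-IgG only, where it was not well above background.

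For Mobp, which encodes a small basic protein of compact myelin, the probes disagreed. Mobp probe c had 258.3 in EAEcoP, 35.6 in EAEcoI and 25.6 in ENMO, 60.4 with control IgG only and 12.7 in healthy control, and was not well above background with NMO-IgG only (14.7). Its 6 arrays stood in the same order as those of Mbp. Mobp probe b had 240.5 in EAEcoP, 102.9 in EAEcoI and 84.8 in ENMO, and without T cells 35.1 in healthy control, 151.1 with control IgG only and 108.9 with NMO-IgG only, and it too was highest in EAEcoP and lowest in healthy control. Mobp probe a, in contrast, had 237.7 in EAEcoP, 318.9 in EAEcoI and 260.0 in ENMO, and without T cells 328.8 in healthy control, 386.2 with control IgG only and 488.0 with NMO-IgG only. EAEcoP was its lowest array, and no step between neighbours in its order was past the spread between spots.

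The remaining members had narrower ranges or weak signal. The raft protein gene Mal had 28.7 in EAEcoP, 24.1 in EAEcoI and 19.2 in ENMO, and without T cells 28.7 in healthy control, 39.0 with control IgG only and 25.9 with NMO-IgG only, a range of 2.03-fold. The tight junction gene Cldn11 had 260.1 in EAEcoP, 225.7 in EAEcoI and 159.0 in ENMO, and without T cells 160.0 in healthy control, 349.1 with control IgG only and 263.0 with NMO-IgG only, a range of 2.20-fold. For both, control IgG only was the highest array and ENMO the lowest, and no step between neighbours was past 1.63-fold. Ugt8 was near the detection limit. Ugt8 probe a was well above background in EAEcoP (14.1), NMO-IgG only (26.2) and control IgG only (34.5) but not in ENMO (14.2), EAEcoI (8.27) or healthy control (8.96), and Ugt8 probe b was not well above background on any array (2.36 to 7.55).

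Of the 7 member probes well above background on all 6 arrays, 3 were highest on EAEcoP, 2 on control IgG only, 1 on NMO-IgG only and 1 on healthy control, and none on ENMO or EAEcoI. Among all 11643 such probes, 17.6% were highest on EAEcoP, 18.0% on control IgG only and 12.4% on ENMO. EAEcoP was also the array with the largest share of spots well above background, and control IgG only the one with the smallest. The part of this share in the members' levels was not tested.

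The T cell comparison set all T (ENMO, EAEcoI and EAEcoP) against all non-T (healthy control and the rats given NMO-IgG or control IgG alone), the contrast that the study makes between rats with and without T cell mediated inflammation. The 12 member probes well above background on at least 1 array were tested with limma among 27468 probes. Limma called 0 of 27468 probes (0.00%) at an adjusted p under 0.05, members included, and 3149 had an unadjusted p under 0.05, of which 74.25% were higher in all T. The members' adjusted p ran from 0.343 upwards, with SE of 0.495 to 1.13 on the log2 scale, so none of the 8 genes was shown to rise or fall. Of the 12 probes, 6 had a positive and 6 a negative difference, with a median of 0.20 against 0.01 over all probes tested. This median counts genes with several probes more than once. By the brightest probe of each of the 8 genes, the measure used for the other lists below, the median was -0.30.

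Past 2-fold higher in all T were 5 of the 12 member probes, and of all probes 17.0% were. These were Mag, Mbp probes a and b, Mobp probe c and Cnp, of which Mag, Cnp and Mobp probe c were below background on part of the non-T side, so that their presence in the test came through the arrays where they were high. Mag differed by 2.01 on the log2 scale (SE 0.78), or 4.04-fold, with an unadjusted p of 0.0273 and an adjusted p of 0.376 in limma. Mbp probe a differed by 1.63 (SE 0.75), or 3.09-fold, with an adjusted p of 0.445 in limma. The differences of Mobp probe c (2.76-fold, SE 0.94), Cnp (2.15-fold, SE 0.64) and Mbp probe b (2.002-fold, SE 0.69) were smaller than 2 of their standard errors, which are on the log2 scale. Mbp probe b lay just inside 2-fold, at the lower edge. Without the EAEcoP array the differences were 1.32 for Mag, 0.96 for Mbp probe a, 0.56 for Cnp, 0.43 for Mobp probe c and 0.32 for Mbp probe b, so that Mag alone stayed past 2-fold.

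Past 2-fold lower in all T were 2 of the 12 member probes, and 11.3% of all probes, and both belong to Mog. Mog probe a had a difference of -1.82 on the log2 scale (SE 0.66), or 3.54-fold lower, with an unadjusted p of 0.0202 and an adjusted p of 0.343 in limma, so the direction is a value and not a call. Mog probe b had a difference of -1.54 (SE 1.13), and without the ENMO array it had -0.07. Mobp probe a (-0.55, SE 0.50), Mal (-0.38, SE 0.50), Cldn11 (-0.22, SE 0.54), Mobp probe b (0.62, SE 0.70) and Ugt8 probe a (-0.76, SE 0.63) stayed within 2-fold, and without normalization between arrays, which moved the median of all probes to 0.73, those of Mal, Cldn11 and Ugt8 probe a turned positive. The arrays with and without T cells did not overlap for Mog probe a and Mobp probe a, both lower with T cells, as for 6.82% of all probes, and for none of the members were they higher without overlap, as for 11.3% of all.

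Within slide 1 the difference of Mag between arrays with and without T cells was 1.38 on the log2 scale and within slide 2 it was 1.49. For Mbp probe a it was 0.66 within slide 1 and 1.75 within slide 2, for Mbp probe b 0.59 and 0.82, for Cnp 0.65 and 0.83, and for Mobp probe c 0.43 and 1.38. These 5 probes kept a positive difference within both slides, with only Mag past 2-fold in each. Neither slide matched the antibody. Control IgG was given only on the side without T cells for slide 1, and only on the side with them for slide 2. On slide 1 ENMO was below control IgG only for Mbp probe a (456.5 against 611.7) and Mbp probe b (326 against 466.7). It was also below for Mobp probe c (25.6 against 60.4) and Cnp (23.3 against 25.1). The positive difference of these 4 probes on slide 1 thus came from EAEcoP alone, while Mag was higher in ENMO too (76.5 against 52.2). For Mog probe a the difference was -1.63 within slide 1 and -1.998 within slide 2, whereas Mog probe b had -2.34 and 0.60. With the slide as a block, limma gave 1.43 (SE 0.63) for Mag, 1.20 (SE 0.71) for Mbp probe a and -1.81 (SE 0.72) for Mog probe a. In that fit Mobp probe c (0.91, SE 0.87), Mog probe b (-0.87, SE 1.02), Cnp (0.74, SE 0.62) and Mbp probe b (0.71, SE 0.70) were within 2-fold.

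The slides themselves differed for these probes by as much as the sides of the T cell comparison. The mean log2 NSI of the 3 arrays of slide 1 was above that of slide 2 by 4.65-fold for Mag, 3.92-fold for Mobp probe c, 3.19-fold for Mbp probe a, 2.52-fold for Cnp and 2.17-fold for Mbp probe b. They were 5 of the 12 tested member probes past 2-fold higher on slide 1, where 14.3% of all probes were. Mog probe b had a difference of -2.32 on the log2 scale (36.4 against 182.1), and Mog probe a had a difference of -0.63. Of the pairs of arrays that differ in the T cells alone or in the antibody alone, 7 had 1 array on each slide, and all 3 pairs for the T cells were among them. These pairs share the same 6 arrays, each in more than 1 pair, so they are not independent repeats. The share over all probes was not taken for the counts of pairs. In these pairs the array on slide 1 was the higher in 7 of 7 pairs for Mag and Cnp, in 6 of 7 for both Mbp probes and for Mobp probe c, and in 0 of 7 for Mog probe b. In each such pair the slide and the factor compared cannot be told apart. The pair ENMO and EAEcoP shared a slide, and so did NMO-IgG only and healthy control.

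**Figure D2:**
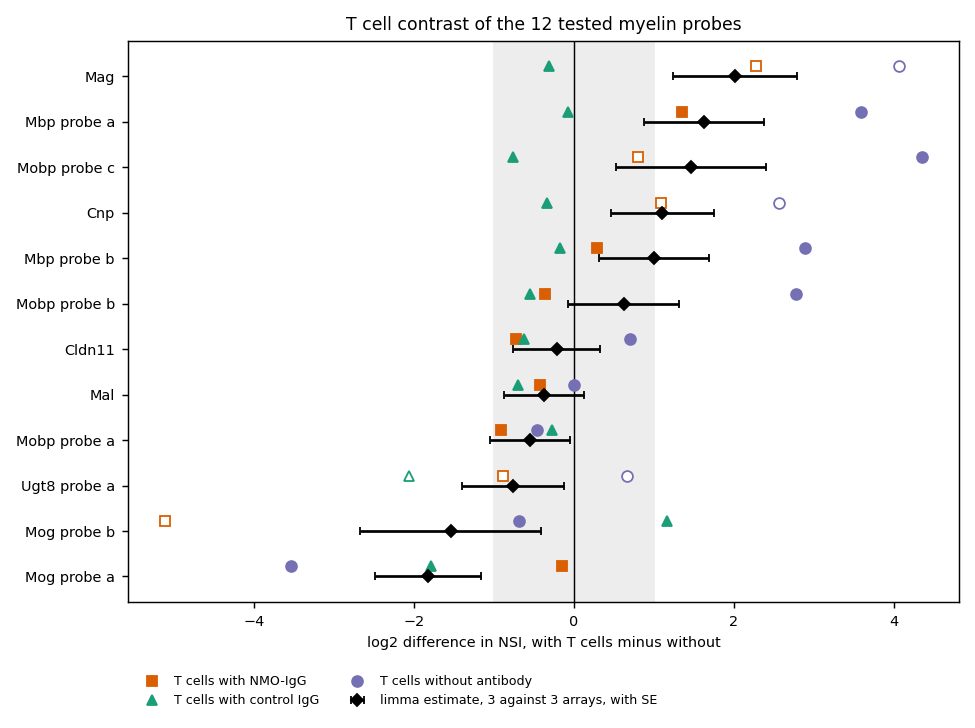
Log2 difference in NSI between arrays with and without T cells for the 12 tested probes: black diamonds give the limma estimate with its standard error, coloured symbols the difference at each antibody, open where 1 side or both were not well above background, and the grey band marks 2-fold. For Mbp, Mag, Cnp and Mobp probes b and c the difference without antibody lies farthest to the right, and that with control IgG lies left of 0.

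The difference between arrays with and without T cells was not alike at each antibody. Without antibody, EAEcoP against healthy control, Mbp probe a was 12.1-fold higher, Mbp probe b 7.44-fold, Mobp probe c 20.4-fold and Mobp probe b 6.86-fold. Mag was at least 16.8-fold and Cnp at least 5.92-fold higher, where the healthy control was below background, and Mog probe a was 11.6-fold lower. Of the 9 member probes measured on both arrays, 4 were past 2-fold higher and 1 lower, when 17.1% of all probes were past 2-fold higher and 38.8% lower. Mal (28.7 on both) and Cldn11 (1.63-fold higher) did not move past the spread between spots.

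With control IgG, EAEcoI against control IgG only, both Mbp probes, Mag and Cnp were level. Mbp probe a differed by 1.05-fold, Mbp probe b by 1.13-fold, Mag by 1.24-fold and Cnp by 1.27-fold, each lower with T cells and each within the spread between spots. Mobp probe b was 1.47-fold lower, and Mobp probe c was 1.70-fold lower, just past that spread. Mog probe a was 3.45-fold lower with T cells, and Mog probe b 2.25-fold higher. These were the 2 of 11 measured member probes past 2-fold, 1 in each direction, while 11.6% of all probes were past 2-fold higher and 20.8% lower.

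With NMO-IgG, ENMO against NMO-IgG only, Mbp probe a was 2.56-fold higher with T cells, and it was the 1 of 7 measured member probes past 2-fold higher, against 8.69% of all probes, and 0 were past 2-fold lower, against 9.73%. Mbp probe b was 1.22-fold higher. Mag was at least 4.86-fold and Cnp at least 2.12-fold higher, with NMO-IgG only below background. Mog probe a differed by 1.11-fold. Mog probe b was at least 26.1-fold lower in ENMO.

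The comparison of ENMO with EAE, the mean of EAEcoI and EAEcoP, addresses the antibody to aquaporin 4 in the presence of T cell mediated disease. Mbp probe a was 2.39-fold lower in ENMO, Mbp probe b 2.43-fold lower and Mobp probe c 3.74-fold lower, and Mog probe a was 2.23-fold higher. So 3 of the 10 member probes measured on both sides were past 2-fold lower and 1 higher, when 10.7% of all 17779 probes were past 2-fold lower and 22.4% higher. The median difference of these member probes was -0.62 on the log2 scale, and that of all probes 0.35. For 1 array against the mean of 2 the spread between spots was 1.53-fold. Mag (1.31-fold lower), Cldn11 (1.52-fold), Mal (1.37-fold) and Mobp probe a (1.06-fold) were within it, Cnp (1.56-fold lower) was just past it, and Mobp probe b was 1.86-fold lower. Mog probe b was at least 16.2-fold lower in ENMO, against the direction of Mog probe a.

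The differences of Mbp and Mobp rested on EAEcoP, which shared slide 1 with ENMO, whereas Mog probe b was lower in ENMO against each, by at least 29.4-fold against EAEcoI and at least 8.89-fold against EAEcoP. Against EAEcoI alone, the group that also received human IgG, 0 of 10 member probes were past 2-fold, where 15.1% of all probes were past 2-fold higher and 11.1% lower. Mbp probe a was then 1.28-fold and Mbp probe b 1.27-fold lower in ENMO, and Mobp probe c 1.39-fold lower. Mag (1.81-fold) and Mog probe a (1.83-fold) were higher in ENMO beyond the spread between spots, which is 1 SD of a difference. On the log2 scale Mag had 0.86, but 0.10 with normexp background correction and 0.15 without normalization between arrays. Mog probe a had 0.87, and 0.43 and 0.30 in these settings. With scaling to the 75th percentile they had 0.86 and 1.02. Against EAEcoP alone, 6 of 10 were past 2-fold lower and 1 higher, and among all probes 19.5% and 33.0%. Here Mobp probe c was 10.07-fold lower in ENMO, Mbp probe b 4.67-fold, Mbp probe a 4.47-fold, Mag 3.13-fold, Cnp 2.86-fold and Mobp probe b 2.84-fold. Mog probe a was 2.71-fold higher.

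**Figure D3:**
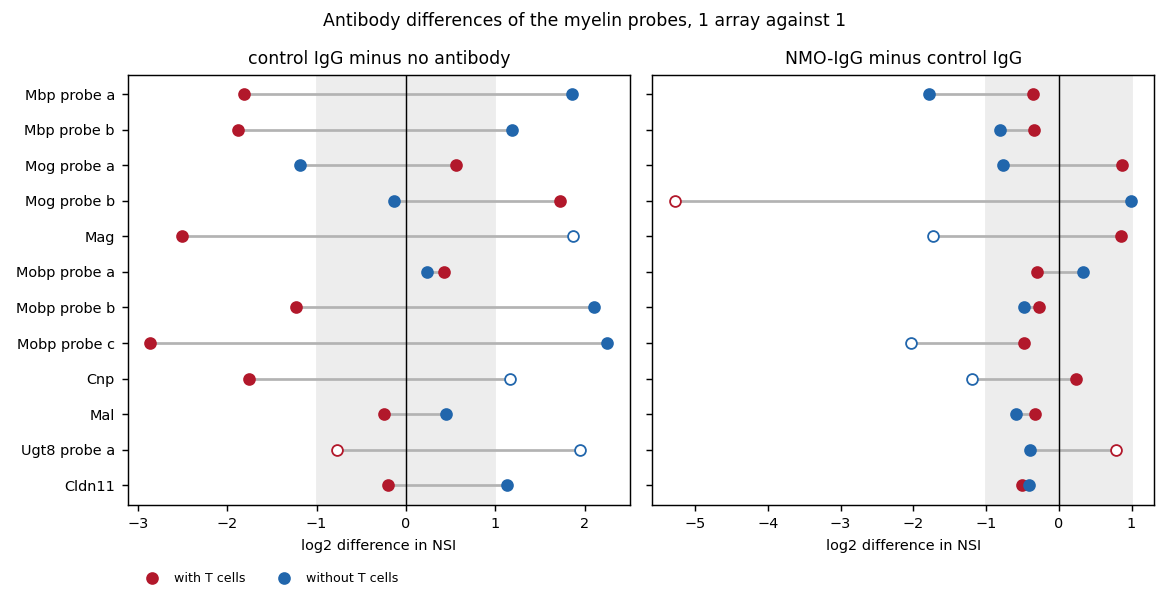
Log2 difference in NSI between arrays that differ in the antibody, with T cells in red and without in blue, open where 1 side or both were not well above background, with the grey band marking 2-fold. In the left panel both Mbp probes, Mag, Cnp and Mobp probes b and c lie left of 0 with T cells and right of 0 without, and in the right panel the measured values with T cells lie within 2-fold.

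Control IgG against no antibody, a comparison of human IgG as such, went opposite ways with and without T cells. With T cells, EAEcoI was below EAEcoP by 3.51-fold for Mbp probe a, 3.69-fold for Mbp probe b, 5.68-fold for Mag, 7.25-fold for Mobp probe c, 2.34-fold for Mobp probe b and 3.37-fold for Cnp. These were the 6 of 11 measured member probes past 2-fold lower, against 19.6% of all probes, and 1 was higher, Mog probe b by 3.31-fold, against 26.7%. The median of the measured members was -1.23 and that of all probes 0.24. Mal (1.19-fold lower), Cldn11 (1.15-fold lower) and Mobp probe a (1.34-fold higher) were within the spread between spots.

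Without T cells, control IgG only was above healthy control by 3.62-fold for Mbp probe a, 2.28-fold for Mbp probe b, 4.31-fold for Mobp probe b, 4.76-fold for Mobp probe c and 2.18-fold for Cldn11. These were the 5 of 9 measured member probes past 2-fold higher, against 11.9% of all probes, and Mog probe a was 2.27-fold lower, against 7.86%. Mag was at least 3.65-fold, Ugt8 probe a at least 3.28-fold and Cnp at least 2.23-fold higher. The median of the measured members was 1.13 and that of all probes 0.11. Among the 12646 probes well above background on these 4 arrays, 6.94% were past 2-fold in opposite directions with and without T cells, and among the 9 member probes it was 4. The difference between the settings was not tested, since each rests on single arrays. EAEcoP and control IgG only, the higher arrays for Mbp, lay on slide 1, and EAEcoI and healthy control on slide 2.

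NMO-IgG against control IgG without T cells gave lower values with NMO-IgG for several of the same genes. Mbp probe a was 3.43-fold lower in NMO-IgG only, the 1 of 9 measured member probes past 2-fold lower, against 11.8% of all probes, and 0 were past 2-fold higher, against 7.40%. Mbp probe b was 1.75-fold and Mog probe a 1.69-fold lower, while Mog probe b was 1.996-fold higher, just under the threshold. Mag was at least 3.32-fold, Mobp probe c at least 4.10-fold and Cnp at least 2.28-fold lower, since NMO-IgG only was below background. NMO-IgG only and healthy control were alike for Mbp probe a (1.06-fold) and both below background for Mag and Cnp, so that control IgG only was the array without T cells that stood apart for these genes. It was also the only array without T cells on slide 1, so that slide and antibody cannot be told apart here.

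Other genes of the oligodendrocyte were read from 5 lists by the brightest probe of each gene. Of 28 genes of mature oligodendrocytes on the array, 27 were tested, and 2 were higher and 4 lower in all T at an unadjusted p under 0.05, against 8.51% and 2.95% of all probes. None was called after adjustment in limma. Of the higher genes, Tf, named after its values were seen, was well above background only on EAEcoI and EAEcoP. The list's median was -0.06 and that of all probes 0.01. Its lowest genes among those above background on all arrays were Qdpr, which encodes dihydropteridine reductase, and Bcas1, a gene of myelinating oligodendrocytes. Qdpr had 263.8 in EAEcoP, 42.7 in EAEcoI and 194.1 in ENMO, and without T cells 1078.8 in healthy control, 1007.3 with control IgG only and 313.5 with NMO-IgG only, 5.38-fold lower in all T, without overlap. Bcas1 had a difference of -1.81 (SE 0.74). Among its highest was Lgi3, with 0.74 (SE 0.50). The summed NSI of this list ran from 8426.2 to 16094.7 on arrays with T cells and from 21118.0 to 30147.1 on arrays without. That of the 8 members ran from 1376.7 to 3024.3 and from 1417.4 to 2294.5, so that the sides overlapped. Hapln2, a hyaluronan link protein gene named after its values were seen, alone gave 5114.1 to 7986.9 of the mature list's sum with T cells and 12249.9 to 20973.3 without. The other genes of that list summed to 3312.2 to 8107.7 and 8868.0 to 12741.9. The overlap of the members rested on Mbp, their brightest gene. Without Mbp the other members summed to 839.9 to 982.7 with T cells and 1239.0 to 2125.5 without, and the sides did not overlap. That separation in turn rested on Mog, whose probe a alone gave 135.9 to 368.0 with T cells and 409.2 to 1573.5 without. Mog probe b did not follow probe a. In bulk tissue fewer oligodendrocytes and less RNA per cell cannot be told apart.

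Among 10 lineage transcription factors 0 had an unadjusted p under 0.05 in limma in either direction. Sox10, which drives myelin genes, had 1235.4 in EAEcoP, 1134.2 in EAEcoI and 4908.3 in ENMO, and without T cells 3643.8 in healthy control, 5220.1 with control IgG only and 4319.3 with NMO-IgG only. The EAEcoI and EAEcoP arrays were thus the low ones, and ENMO lay with the arrays without T cells. Olig1 had a difference of -0.75 (SE 0.61). Myrf, the factor needed for myelination, had 0.15 (SE 0.49), and Nkx2-2 0.18 (SE 0.50). Of the precursor genes 8 were tested, with 1 higher and 1 lower at an unadjusted p under 0.05 in limma, against 8.51% and 2.95% of all probes. The higher gene was Sox6, with 1.34 (SE 0.53), and the lower was Enpp6, a gene of newly forming oligodendrocytes, with -2.35 (SE 0.71). Enpp6 had 57.6 in EAEcoP, 30.1 in EAEcoI and 137.3 in ENMO, and without T cells 639.7 in healthy control, 193.8 with control IgG only and 252.7 with NMO-IgG only, so the arrays with T cells were the lower ones without overlap. The same list held Matn4, with 0.34 (SE 0.54), and Ptprz1, with -0.48 (SE 0.70).

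Genes of the synthesis and breakdown of myelin sphingolipids, the pathway of Ugt8, had a median of -0.45 over 9 genes tested. At an unadjusted p under 0.05 in limma 1 was higher and 0 lower, against 8.51% and 2.95% of all probes. Cers2, the ceramide synthase for very long chains, had -1.09 (SE 0.60), the ceramidase gene Asah1 -0.87 (SE 0.65), the desaturase gene Degs1 -0.45 (SE 0.52) and Sptlc1, of the first step, -0.29 (SE 0.54). The gene higher at an unadjusted p under 0.05 was Psap, which encodes the saposin precursor and was named after its values were seen, with 2.84 (SE 1.02), and it was below background on part of the arrays without T cells. Of the genes of the axoglial junction 5 were tested, with 0 at an unadjusted p under 0.05 in limma. Cntnap1, the paranodal protein gene of the axon, had -0.21 (SE 0.50).

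**Figure D4:**
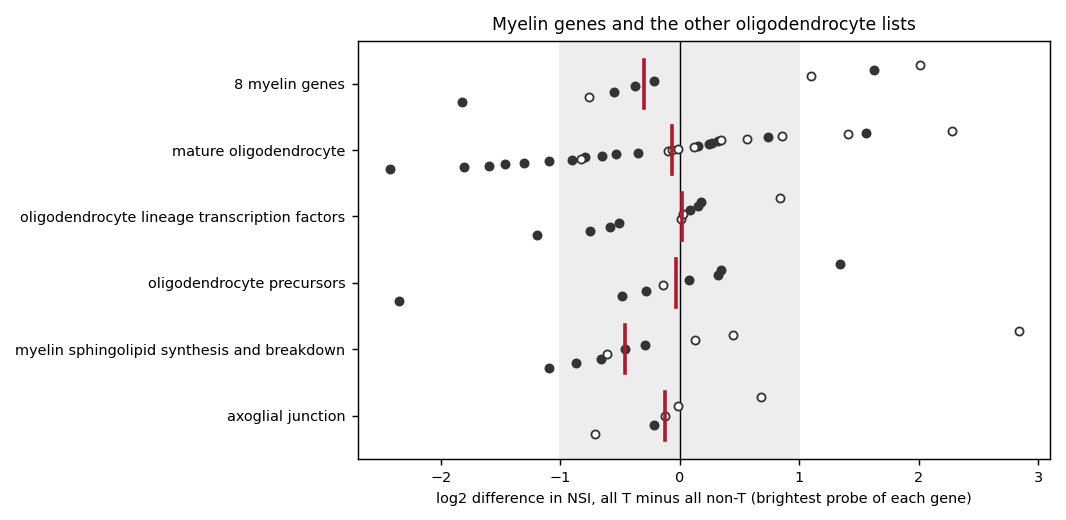
Log2 difference in NSI of all T minus all non-T for each tested gene of the 8 myelin genes and of 5 further oligodendrocyte lists, filled where the probe was well above background on all 6 arrays, with the median of each list in red and the grey band marking 2-fold. The medians lie between -0.45 and 0.02, with single genes beyond 2-fold on both sides.

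Of the marker genes of other cells, 0 were called after adjustment in limma. At an unadjusted p under 0.05 in limma, 4 of 17 tested macrophage and microglia genes were higher with T cells and 0 lower. Of 7 tested T cell genes 1 was higher and 0 lower, and of 12 tested astrocyte genes 2 were higher and 1 lower. Among all probes 8.51% were higher and 2.95% lower. The higher genes Aif1, Itgam, Lyz2, Cd8a and Glul, named after their values were seen, were well above background only on arrays with T cells. Their presence in the test thus came through the arrays where they were high. The median differences of the lists were 0.06 for macrophages and microglia, 0.30 for T cells and -0.11 for astrocytes, against 0.01 over all probes. The summed NSI of 17 macrophage and microglia genes ran from 9774.7 to 17277.6 on arrays with T cells and from 6847.8 to 8556.7 without, that of 10 T cell genes from 1153.3 to 2617.2 and from 786.2 to 1084.4, and that of 14 astrocyte genes from 628.9 to 1080.4 and from 1869.8 to 2921.3. Each of these separations rested on the brightest gene of its list, named after its values were seen. Gjb6, a connexin gene of astrocytes, alone gave 29.9 to 128.5 with T cells and 1410.4 to 2362.4 without, and the other astrocyte genes summed to 500.4 to 1020.5 and 459.3 to 643.7. Without Tyrobp, an adaptor gene of myeloid receptors, the macrophage and microglia genes summed to 3236.1 to 7258.4 and 5495.7 to 5903.6. The low end, 3236.1, was the ENMO array, where C1qb had no value and was left out of both sums. On the other arrays C1qb gave 2689.7 (healthy control) to 3995.7 (EAEcoP), so the ENMO sums are too low to compare. Without Cd3d, of the T cell receptor complex, the T cell genes summed to 229.8 to 326.1 and 166.8 to 270.7, so that without these genes the sides overlapped for each list. Genes of Schwann cells, which form the myelin of nerve roots, summed to 383.3 to 1045.9 with T cells and to 324.5 to 477.4 without. Dhh, named after its values were seen, alone gave 179.7 to 815.6 and 101.4 to 151.7 of these sums. The other genes of that list summed to 194.5 to 230.2 with T cells and 223.1 to 325.7 without. Of 9 Schwann cell genes on the array 5 were well above background on all arrays. Of the T cell genes 3 and of the macrophage genes 0 were not well above background on any array. Neuron genes summed to 2485.5 to 8046.7 with T cells and 4940.2 to 12703.2 without, where healthy control lacked a value of Nefm. The 12 reference genes summed to 974.8 to 3616.1 and 1358.7 to 2439.3. The part of these cells in the members' values was not tested.

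The members' own mean profile was taken over the 5 genes well above background on all arrays (Mbp, Mog, Mobp, Mal and Cldn11, brightest probe, centred log2 values). It was highest in control IgG only (0.51), followed by EAEcoP (0.08), healthy control (0.02), NMO-IgG only (-0.13), EAEcoI (-0.18) and ENMO (-0.30). Over these 6 arrays and 6615 named probes, the 5 most alike by Pearson correlation were Btf3-ps15 (0.97), Pip4k2a (0.97), Atp2b3 (0.97), Igsf3 (0.96) and Ugt2b15 (0.95). Pip4k2a, a lipid kinase gene, had 675.6 in control IgG only and 92.2 to 218.4 on the other arrays. These correlations are descriptions over arrays that share 1 normalization.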

How the data were processed

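Spinal cord RNA was hybridised to 6 arrays in 1 colour, 1 for each group. Deposited by the authors were a spot table of each array, with background-corrected intensity (not normalized between arrays) and marks for outliers and for signal well above background, and a table with 1 intensity per target. Outlier spots were dropped, log2 intensities were averaged over a probe's spots and the arrays were quantile-normalized, as the study's methods state, to give NSI. All T and all non-T were compared with limma 3.58.1 (R 4.3.3), two-sided, on probes that were well above background on 1 array or more, using Benjamini-Hochberg adjustment over all probes and a threshold of 0.05. Fold changes are differences of mean log2 NSI. Since arrays of a side differ in antibody, the spread holds the antibody too, and nothing is known of the spread between animals. Single arrays were compared without a test, and past 2-fold was counted where both sides were well above background. Where 1 side was not, the higher of its own value and the array's lowest value well above background gave a bound ("at least"). Precision is limited by the number of arrays. The fit was tested on simulated data.

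The comparison of slides was added after the values were seen. The members and gene lists were chosen with earlier results of these data known. Named genes were all members by every probe, of each other oligodendrocyte list up to 4 genes (the 2 highest and 2 lowest in all T minus all non-T among those well above background on all 6 arrays), and the 5 probes most alike to the members' mean profile. Lists covered 5 oligodendrocyte groups and Schwann cells, macrophages and microglia, T cells, astrocytes, neurons and reference genes. Alternatives were scaling to the 75th percentile, normexp with an offset of 50, no normalization, outlier spots kept, the deposited intensity per target, ratios of mean intensity, other filters, the slide or antibody as a block, an intensity trend, each array left out, each EAE array alone, other fold thresholds and the mean over a gene's probes. Probes have no genome position in the sources used here. Some genes of these lists are not reported here by name.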

Additional observations from a re-analysis of the deposited data

Results flagged for a closer look

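For 4 member probes the difference between control IgG and no antibody was past 2-fold in opposite directions with and without T cells, a difference between settings that was not tested, since each value compares 1 array with 1. Mbp probe a had -1.81 on the log2 scale with T cells and 1.86 without, and Mbp probe b had -1.88 and 1.19. Mobp probe b had -1.23 with T cells and 2.11 without, and Mobp probe c had -2.86 and 2.25. EAEcoP and control IgG only, the higher arrays of both pairs, lay on slide 1, and EAEcoI and healthy control, the lower ones, on slide 2, so that slide and antibody cannot be told apart in these pairs.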

How the results depend on the processing

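For all T minus all non-T, 12 member probes were set against up to 17 alternatives each, and a sign changed 5 times: for Mobp probe b without healthy control (-0.003047, in a range up to 1.051 with single arrays left out), for Cldn11 without control IgG only (0.0377, in a range from -0.525) and, without normalization between arrays, for Mal (0.52), Ugt8 probe a (0.24) and Cldn11 (0.32). With normexp Mag had 0.76, Mbp probe b 0.85, Mobp probe c 0.54, Cnp 0.30 and Mog probe b -0.37, each within 2-fold. Mbp probe a (1.435) and Mog probe a (-1.36) stayed past 2-fold with normexp. The count of adjusted calls, 0, became 34 without normalization and ran from 0 to 213 with single arrays left out (213 without ENMO and 3 without EAEcoI). The 3149 probes at an unadjusted p under 0.05 became 1622 with normexp (54.50% higher in all T, against 74.25%), 5166 without normalization (98.10% higher), 1239 among probes well above background on all arrays (47.46% higher), and ran from 2048 (without EAEcoP) to 4831 (without ENMO, 63.92% higher), with 2058 without NMO-IgG only. The cause was not tested.

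Counts of member probes past 2-fold moved as follows. ENMO minus EAE had 4, and 2 with scaling to the 75th percentile or with normexp, 7 without normalization, 0 against EAEcoI alone, 7 against EAEcoP alone, 7 at 1.5-fold and 1 at 3-fold. NMO-IgG minus control IgG had 0 with T cells, and 1 with scaling to the 75th percentile or the deposited values per target, 3 without normalization and 2 at 1.5-fold. Without T cells it had 1, and 2 without normalization and 5 at 1.5-fold. Control IgG minus no antibody without T cells had 6, and 3 at 3-fold. T cells with NMO-IgG had 1, and 2 with the deposited values per target, 3 at 1.5-fold and 0 at 3-fold. T cells with control IgG had 2, and 1 with scaling to the 75th percentile, 0 with the deposited values per target, 5 at 1.5-fold and 1 at 3-fold. No paired analysis by replicate number was possible because the labels carry none. With the arrays paired by antibody as a block, limma called 0 probes after adjustment, with 2866 at an unadjusted p under 0.05, and gave 2.01 (SE 0.84) for Mag and -1.82 (SE 0.75) for Mog probe a. Signal near background limits Mag, Cnp, Ugt8 and Mobp probe c.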
